A study of Mus musculus with 8 samples.

Results

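The keratin genes were taken as every gene whose symbol is Krt followed only by digits. The rule found 44 of the 18603 promoter windows in the H3K27me3 files and the same 44 genes among the 22410 in the RNA files. Of these, 25 lie on chromosome 11 and 19 on chromosome 15. Keratins whose symbols end in a letter (Krt33a and Krt33b on chromosome 11, Krt6a and Krt6b on chromosome 15) fall outside the rule. The cells studied were naive CD4+ T cells, isolated from the lymph nodes of mice on a 129SV/B6 background, and both H3K27me3 (by ChIP-seq) and RNA (by RNA-seq) were recorded. The 4 genotypes were Ezh1-/- (Ezh1 KO), Ezh2 fl/fl CD4-cre (Ezh2 KO), Ezh1-/- with Ezh2 fl/fl CD4-cre (double KO), and WT. The Ezh1 deletion is in every cell of the animal, whereas CD4-cre, a recombinase driven by Cd4 regulatory sequence, acts on floxed Ezh2 only from the stage of T cell development at which Cd4 is switched on. The labels do not give ages or how many animals went into a library. Each genotype had 1 library per assay, 8 libraries in all, so no SD, p or test can be given, and "higher" and "lower" describe single libraries.

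Keratins are the intermediate filament proteins of epithelia. A type I (acidic) keratin pairs with a type II (basic) keratin to build each filament, and different pairs mark different epithelia: Krt8 with Krt18 in simple epithelia, Krt5 with Krt14 in the basal layer of skin, Krt1 with Krt10 in the layers above it, and a large set in hair and its root sheath. In mouse the type I genes sit together on chromosome 11 and the type II genes on chromosome 15, where Krt18, a type I gene, lies beside its partner Krt8. T cells are not epithelial and use Vim, another intermediate filament protein, for this part of the cytoskeleton. H3K27me3 is the repressive histone mark placed by Polycomb repressive complex 2 (PRC2), whose catalytic subunit is Ezh1 or Ezh2. The comparisons below ask how much of the mark lies on keratin promoters in these cells, and how the level differs between the genotypes.

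H3K27me3 is given as the deposited coverage per M reads summed over the 25 bp bins of a 6 kb window centred on the start site, and called the H3K27me3 level here. Depth, worked out from how high a single read stands, was 78.2 to 88.2 M reads for the ChIP libraries and 36.1 to 94.1 M reads for the RNA libraries. A chromosome 11 keratin window held between 149 and 699 read equivalents. RNA is given as the mean over a gene's exons of the highest coverage in each exon, per M reads. It is not divided by length, so levels are not compared between genes as amounts of RNA. For Ezh1, the RNA value was 0.196 in Ezh1 KO, 1.12 in Ezh2 KO, 0.194 in double KO and 1.05 in WT cells. For Ezh2 it was 0.913 in Ezh1 KO, 1.08 in Ezh2 KO, 1.17 in double KO and 0.925 in WT cells, and since this is a mean over all exons it does not check the loss of the floxed ones. The Cd4 window had an H3K27me3 level of 24.1 in Ezh1 KO, 193 in Ezh2 KO, 212 in double KO and 19.9 in WT cells, so the 2 libraries with high coverage there are those of the genotypes carrying CD4-cre. All 9 T cell marker genes had RNA of at least 1 in every library. Of the 8 epithelial markers, none reached 1 in any library, and their summed RNA was 0.237, 0.378, 0.255 and 0.318 in the Ezh1 KO, Ezh2 KO, double KO and WT. The summed RNA of 5 B cell markers was 1.55, 2.47, 4.50 and 1.16 in the same order, and that of 5 myeloid markers was 0.678, 0.728, 1.32 and 0.378. Both sums were highest in the double KO, and their part in the results below was not tested.

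The promoters of 5 keratins show the sequence setting of these values. Each is the 250 bases upstream of the start site, read 5′ to 3′ on the gene's strand from mm9, in which the capitals mark every CG dinucleotide and every TATAAA or its reverse complement TTTATA. Krt25 and Krt28, inner root sheath keratins of the hair follicle, had the highest WT levels of H3K27me3; Krt35, a hair cortex and cuticle keratin, had the lowest. Krt8 and Krt18 are the simple epithelial pair on chromosome 15. The positions are chr11:99184266-99184515 for Krt25, chr11:99236218-99236467 for Krt28 and chr11:99957540-99957789 for Krt35, all on the minus strand. They are chr15:101834743-101834992 on the minus strand for Krt8 and chr15:101858409-101858658 on the plus strand for Krt18.
Krt25: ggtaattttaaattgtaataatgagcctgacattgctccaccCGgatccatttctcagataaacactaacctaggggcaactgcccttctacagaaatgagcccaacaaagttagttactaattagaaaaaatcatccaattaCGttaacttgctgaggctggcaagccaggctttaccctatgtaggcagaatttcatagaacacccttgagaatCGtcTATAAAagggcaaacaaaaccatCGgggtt
Krt28: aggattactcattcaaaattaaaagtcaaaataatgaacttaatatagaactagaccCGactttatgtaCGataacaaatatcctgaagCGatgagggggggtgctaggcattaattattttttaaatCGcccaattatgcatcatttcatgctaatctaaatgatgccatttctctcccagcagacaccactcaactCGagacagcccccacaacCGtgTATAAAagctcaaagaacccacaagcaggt
Krt35: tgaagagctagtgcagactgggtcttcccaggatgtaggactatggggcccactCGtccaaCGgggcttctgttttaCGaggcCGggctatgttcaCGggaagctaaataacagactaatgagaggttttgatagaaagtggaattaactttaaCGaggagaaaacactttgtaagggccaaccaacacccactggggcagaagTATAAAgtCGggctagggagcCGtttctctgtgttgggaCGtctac
Krt8: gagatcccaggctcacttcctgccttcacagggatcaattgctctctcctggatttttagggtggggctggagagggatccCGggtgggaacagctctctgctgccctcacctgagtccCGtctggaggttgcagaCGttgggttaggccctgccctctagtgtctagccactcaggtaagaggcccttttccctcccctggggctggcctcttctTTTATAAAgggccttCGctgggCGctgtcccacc
Krt18: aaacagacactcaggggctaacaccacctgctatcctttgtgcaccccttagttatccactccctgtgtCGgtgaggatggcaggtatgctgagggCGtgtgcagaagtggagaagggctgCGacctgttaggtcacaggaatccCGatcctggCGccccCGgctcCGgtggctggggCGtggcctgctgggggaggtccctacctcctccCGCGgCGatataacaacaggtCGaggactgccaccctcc

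TATAAA began 30 bases before the start site in both Krt25 and Krt28, 46 bases before it in Krt35 and 32 bases before it in Krt8, and was not found in these letters of Krt18. Krt18 had 12 CG dinucleotides in this stretch, against 9 in Krt35, 6 in Krt28, 5 in Krt8 and 4 in Krt25. Across the family, TATAAA on either strand was found in 16 of 25 chromosome 11 promoters (64.0%) and 6 of 19 chromosome 15 promoters (31.6%). The same search found it in 9.84% of the 17625 upstream stretches of all genes. Of the 20 keratins with TATAAA on the gene's own strand, 15 had it beginning between 34 and 26 bases before the start site. Keratin promoters held few CG dinucleotides: the median over 250 bases was 4 on chromosome 11 and 4 on chromosome 15, against 11 over all genes. In the whole 6 kb window the median was 85 CG on chromosome 11 and 87 on chromosome 15, against 117 over all windows. On chromosome 15 Krt18 (153) and Krt8 (138) had the most CG of the family. These are descriptions of the letters in the windows, not of binding.

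The 19 chromosome 15 windows could not be read for H3K27me3. Every one of them, from Krt80 to Krt18, was listed at 0 in the Ezh1 KO, the Ezh2 KO, the double KO and WT, both for the summed coverage and for the highest bin. They lie inside a run of 87 windows listed at 0 in all 4 libraries, which covers the last 3.02 Mb of windows on that chromosome, from Tcfcp2 onward. Before that run no chromosome 15 window was at 0 in all 4 libraries. The last window with signal was that of Csrnp2, ending at position 100328670, and the first at 0, that of Tcfcp2, started at 100379439. The type II keratins share this stretch with active genes: of the 87 genes, 18 had WT RNA of at least 1, among them Pfdn5 with 24.0, Hnrnpa1 with 19.1 and Eif4b with 15.1. The same kind of run at the end of a chromosome was found on 7 chromosomes (13, 14, 15, 16, 17, 18 and X) and held 409 of the 528 windows at 0 in all libraries. Its cause was not tested. A 0 in these windows is therefore not given as absence of the mark, and levels of H3K27me3 on the 2 keratin chromosomes are not compared.

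**Figure D1:**
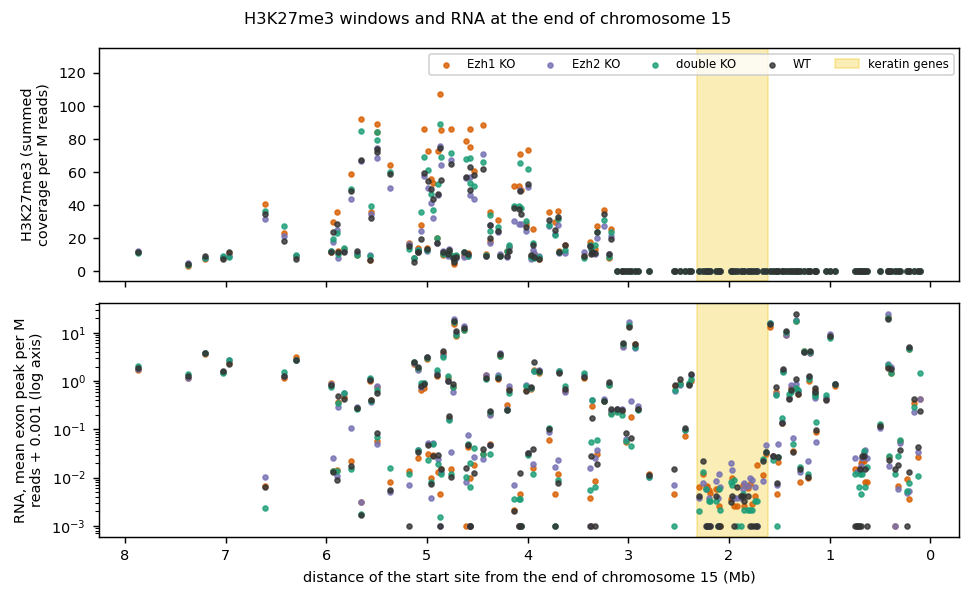
H3K27me3 level (upper panel, summed coverage per M reads) and RNA (lower panel, mean exon peak per M reads plus 0.001, log axis) of every gene within 8 Mb of the end of chromosome 15, against the distance of its start site from the end (Mb); each point is 1 gene in 1 library, and the shaded band spans the 19 keratins. All 87 windows nearest the end are at 0 in all 4 libraries, while 18 of those genes have WT RNA of at least 1.

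On chromosome 11 the 25 keratins span 1026 kb and had a median H3K27me3 level above the background of active genes in every library, while single windows came close to that background. Their median level was 27.7 in Ezh1 KO, 20.9 in Ezh2 KO, 23.6 in double KO and 21.9 in WT cells. Over all windows above 0 the medians lay between 13.9 and 14.6. Background was taken as the 7077 windows whose genes lay in the top tertile of WT RNA over all genes, with windows at 0 kept. The keratin median was 2.82, 1.88, 2.27 and 2.16 times the background median. The lowest windows were at 1.04 times background for Krt15 in the Ezh2 KO and 1.16 times for Krt35 in WT, and with no input library they cannot be said to carry the mark. Among the 8302 windows of other genes with WT RNA no higher than that of the highest keratin, the median was 25.9, 20.4, 22.6 and 22.5. The medians of the keratins and of these other near-silent genes lay within 2 units of each other in each of the 4 libraries.

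By the ratio of the highest bin to the mean bin, coverage was flatter across keratin windows than across all windows, as it was in other windows of near-silent genes. The highest bin was 2.39 times the mean bin at the median keratin in Ezh1 KO, 2.60 in Ezh2 KO, 2.41 in double KO and 2.33 in WT cells. Over all windows above 0 the same ratio was 2.99, 3.01, 2.92 and 2.97. In the windows of other near-silent genes it was 2.58, 2.75, 2.59 and 2.59, and in the background windows of active genes 3.44, 3.26, 3.23 and 3.35. The median WT level was 21.9 for keratins, 22.5 for near-silent genes, 13.9 for all windows and 10.1 for background. The part of read number per window in this ratio was not tested. Measured by its highest bin in place of the sum, the median keratin in WT stood 1.33 times above the median of all windows, against 1.58 times by the sum.

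Few keratin windows reached the level called marked here, 4 times the background median of the library. In the Ezh1 KO 5 of 25 were marked, in the Ezh2 KO 0, in the double KO 0 and in WT 2. Of all windows above 0, 17.4% were marked in Ezh1 KO, 7.71% in Ezh2 KO, 13.1% in the double KO and 12.3% in WT. The threshold itself was 39.3, 44.3, 41.6 and 40.6, so in WT Krt25 at 45.2 and Krt28 at 41.7 lay just above it and Krt27 at 39.1 just below. Counts of marked keratins therefore turn on differences of a few units: at 2 times background the counts were 19, 11, 16 and 15. The share of all windows at 2 times background is not given. The median of all windows above 0 already stood at 1.49, 1.25, 1.34 and 1.37 times background.

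The level changed along the cluster. The keratins fall in 2 blocks separated by 498 kb that hold 21 genes for keratin-associated proteins (Krtap genes, hair matrix proteins), and the blocks were described separately after their values had been seen, using only the position of the Krtap genes. The first block, 12 genes from Krt222 to Krt40, had a median level of 35.5 in Ezh1 KO, 28.5 in Ezh2 KO, 27.6 in double KO and 31.8 in WT cells. The 13 genes of the second block, from Krt34 to Krt42, had 20.2, 15.7, 18.1 and 17.1. The Krtap windows between them had 17.1, 16.4, 15.8 and 18.7, with none marked in any library. Position and level ran together over the 25 windows in WT, with Spearman's rho of -0.66 and Pearson's r of -0.78. In Ezh1 KO, Ezh2 KO and double KO cells rho was -0.56, -0.68 and -0.65, and r was -0.67, -0.75 and -0.69. These are given as a description because neighbouring windows share their chromatin and library.

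**Figure D2:**
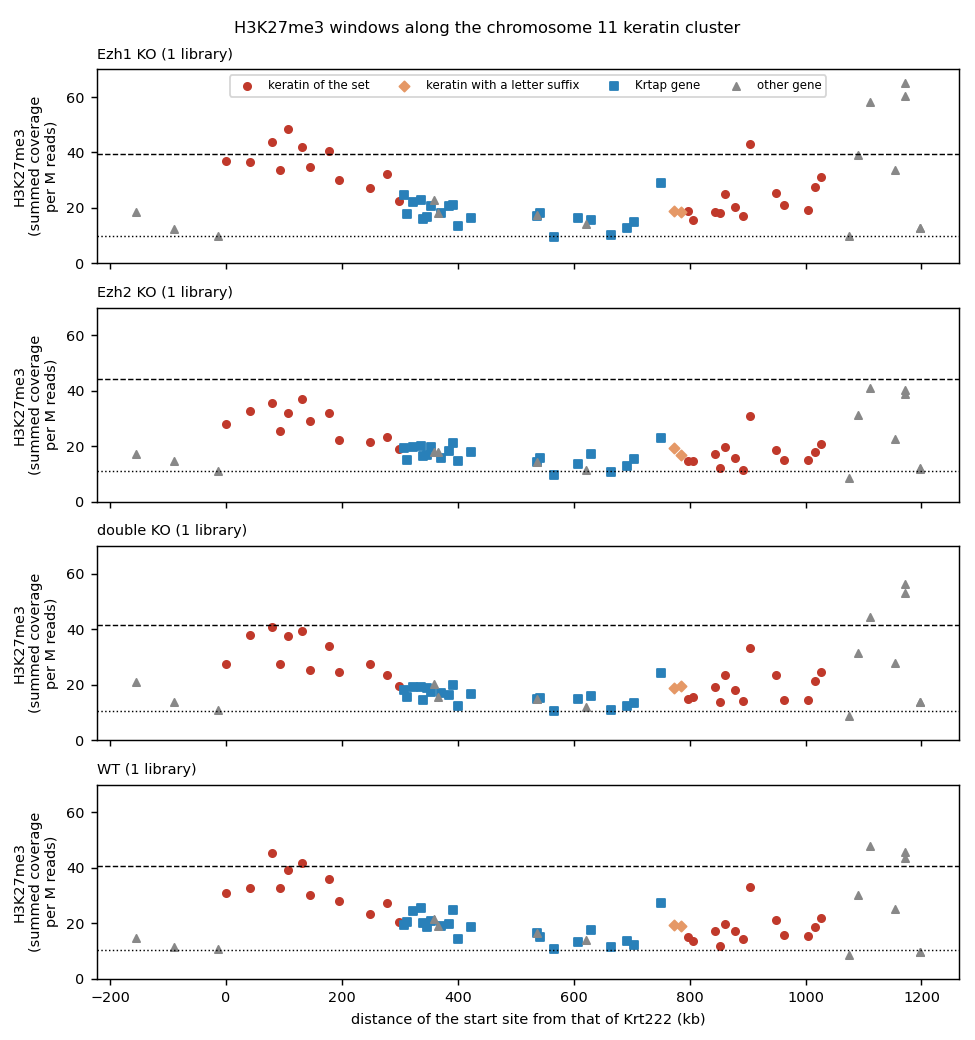
H3K27me3 level (summed coverage per M reads) of every promoter window along the chromosome 11 keratin cluster and its flanks, against distance from the Krt222 start site (kb), in 1 panel per library; the dashed line is 4 times and the dotted line 1 times the background median of that library. Most of the first 12 keratins stand above the Krtap windows in all 4 panels, the Krtap windows are all below the dashed line, and Krt19 stands above its neighbours.

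The highest WT levels in the cluster were those of the inner root sheath genes Krt25, Krt28 and Krt27 and of Krt12, the corneal keratin. Krt25 (window chr11:99181265-99187265) had levels of 43.9 in Ezh1 KO, 35.5 in Ezh2 KO, 40.7 in double KO and 45.2 in WT cells. Krt28 (window chr11:99233217-99239217) had 42.0, 37.1, 39.3 and 41.7 in the same order. For Krt25 the Ezh2 KO library was the lowest and WT the highest, and for Krt28 the 4 libraries lay within 5 units. Krt27 had 48.4 in the Ezh1 KO, the highest keratin value in any library, against 32.0 in the Ezh2 KO, 37.6 in the double KO and 39.1 in WT. Krt12 had 40.4, 31.9, 34.0 and 36.0, and Krt26, an inner root sheath gene between Krt25 and Krt27, had 33.7, 25.6, 27.4 and 32.6. Krt24 had 36.5, 32.9, 38.1 and 32.7, which in the double KO was above Krt27 and Krt12. Of these, Krt27 and Krt12 were marked in the Ezh1 KO and in no other library.

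Krt19, which lacks the usual tail domain and is used by simple epithelia, stood apart in the second block. It had 43.2 in Ezh1 KO, 30.8 in Ezh2 KO, 33.3 in double KO and 33.0 in WT cells. Its neighbours Krt15, a basal and hair follicle stem cell keratin, and Krt9, the keratin of palms and soles, had WT levels of 14.2 and 21.1. The Krt19 window is centred on an annotated start with no coding transcript start within 100 bases, the only such case among the 44.

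The 3 lowest windows by WT level were those of Krt35, Krt31 and Krt15, all in the second block. Krt35 had 18.2 in Ezh1 KO, 12.2 in Ezh2 KO, 13.8 in double KO and 11.8 in WT cells. Krt31, a hair cortex keratin, had 15.5, 14.8, 15.4 and 13.5, and Krt15 had 17.1, 11.5, 14.1 and 14.2. These values are close to the median of all windows in their libraries. Krt14, the basal keratin, had 20.9, 15.1, 14.4 and 15.9, and Krt10, its suprabasal counterpart in the first block, had 34.5, 29.0, 25.4 and 30.2. Krt10 was above Krt14 in all 4 libraries.

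Both ends of the cluster met windows of active genes. Smarce1, a chromatin remodelling subunit with WT RNA of 4.62, starts 13.1 kb from Krt222 and had levels of 9.76 in Ezh1 KO, 10.9 in Ezh2 KO, 10.9 in double KO and 10.6 in WT cells, against 36.8, 28.0, 27.7 and 31.0 at Krt222. At the other end Krt42 had 31.0, 20.9, 24.7 and 21.9, and the translation factor gene Eif1, 50.0 kb further on and with WT RNA of 8.10, had 9.72, 8.37, 8.79 and 8.42. The level at Krt222 was over 2 times that at Smarce1 in every library. Beyond Smarce1, Ccr7 and Tns4 had WT levels of 11.3 and 14.7. Beyond Eif1 the level did not stay low. The windows of Gast, Hap1, Jup and Fkbp10 there stood above that of Krt42 in every library, with 30.3 for Gast and 43.5 for Fkbp10 in WT. Those of Nt5c3l and Klhl10, further on, lay below it, with 9.45 and 9.56 in WT. The Ezh1 gene itself starts 957 kb beyond Krt42, and its window had levels of 19.1, 14.5, 17.0 and 17.2.

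Keratin windows held fewer CG dinucleotides than those of most other intermediate filament genes. All 25 chromosome 11 keratin windows fell in the lower 2 of 4 equal groups of windows ordered by CG count, 8 in the lowest and 17 in the next. In those groups the median WT level over all windows was 14.4 and 14.5, and it was 12.3 and 14.1 in the upper 2. Within the first block, CG in the central 1 kb and WT level had Spearman's rho of 0.58 and Pearson's r of 0.67 over 12 windows. Within the second block these were 0.02 and -0.12 over 13. In Ezh1 KO, Ezh2 KO and double KO cells rho was 0.515, 0.363 and 0.466 in the first block. In the second block it was 0.213, 0.0221 and -0.183. The other 15 intermediate filament genes had a median of 175 CG per window, and a median level of 51.8 in Ezh1 KO, 33.8 in Ezh2 KO, 44.1 in double KO and 38.9 in WT cells. Of them, 7 were marked in WT. Des, the muscle filament gene, with 171 CG, had levels of 56.8, 33.8, 44.1 and 38.9. Nes, the filament gene of neural progenitors, with 175 CG, had 79.8, 55.1, 68.0 and 57.6. Vim, the filament gene in use here, with 148 CG and RNA of 17.7, 16.4, 15.5 and 18.5, had H3K27me3 levels of 11.2, 10.0, 11.3 and 9.70.

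**Figure D3:**
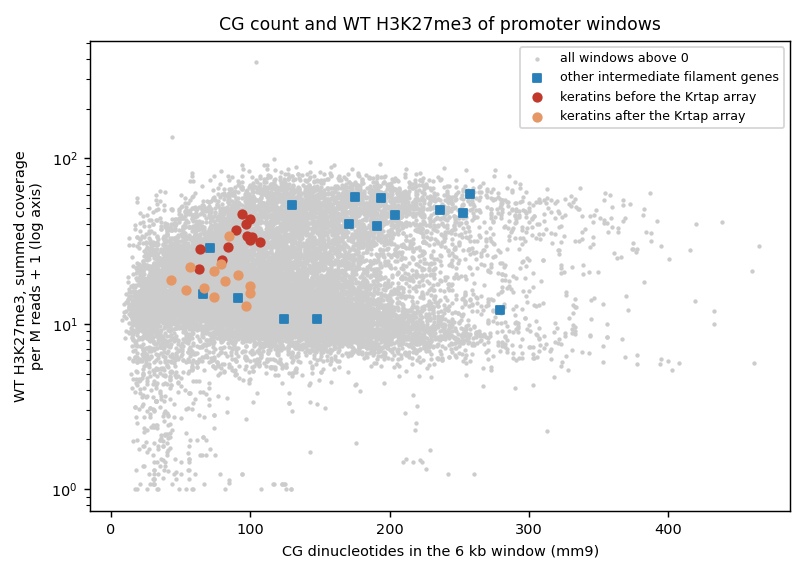
WT H3K27me3 level plus 1 (summed coverage per M reads, log axis) against the number of CG dinucleotides in the 6 kb window (mm9), 1 point per window, for chromosome 11 keratins by block, other intermediate filament genes and all windows above 0. The 25 keratins lie between 43 and 107 CG, and the median of the other 15 filament genes is 175 CG.

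Genes that work with keratins were compared from lists set beside the family. The 10 keratin partners (desmosome and linker genes such as Dsp, Pkp1 and Ppl) had a median level of 63.8 in Ezh1 KO, 44.0 in Ezh2 KO, 54.8 in double KO and 47.6 in WT cells, with 6 marked in WT. Dsp, the desmosomal plaque protein that anchors keratin filaments, had 68.6, 58.8, 70.4 and 60.5. The 9 cornified envelope genes had a median of 10.9, 14.1, 11.7 and 13.2, with Lor the 1 marked in WT at 53.5. Among 9 epithelial transcription factor genes above 0, 3 were marked in WT (Ovol1, Grhl2 and Grhl3), and Trp63, the basal epithelial regulator, had 15.7, 14.9, 14.6 and 16.4. Keratin levels thus lay between those of the cornified envelope genes and those of the partners in all 4 libraries.

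Between genotypes no keratin window reached 2-fold. The ratio used is log2 of the level plus 1 in one library over that in the other, and all 25 chromosome 11 keratins were at 1 or more in the higher library and so could be compared. In Ezh1 KO over WT, 0 of 25 were at least 2-fold higher and 0 at least 2-fold lower (0.0111% and 0.0223% of 17972 windows). In Ezh2 KO over WT there were 0 in either direction (0.0167% and 0.0167% of 17982 windows). In double KO over WT there were 0 in either direction (0.0334% and 0.139% of 17976 windows). The largest keratin difference of the 3 was that of Krt35 in the Ezh1 KO, 0.58 on the log2 scale. The 19 chromosome 15 windows entered none of these comparisons, being at 0 throughout.

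Smaller differences in the Ezh1 KO were mostly upward at the deposited scaling. There, 24 of 25 keratins exceeded their WT level (median log2 ratio 0.23), but 18 of 25 were lower, with a median of -0.073, when the windows marked in WT were set equal between libraries. Over all windows 64.2% were higher and 35.8% lower in the Ezh1 KO, with a median of 0.09. With the windows marked in WT set equal, the median of all windows was -0.20 and 14242 of 17967 were lower. The keratin median lay above that of all windows under both scalings. Windows of like WT level (within the range of WT levels of the keratins they are set beside) had a median of 0.14 at the deposited scaling. For 13 of 25 keratins the 95% counting interval of the ratio lay above 0 and for 0 below, against 29.1% and 4.69% of all windows. Among the 9135 windows of like WT level it lay above 0 at 3342 and below 0 at 372. These intervals cover counting error only, not variation between animals or preparations.

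The blocks differed in the Ezh1 KO when set against windows of like level. The 13 keratins of the second block had a median log2 ratio of 0.32, and windows of like WT level had 0.11. With the windows marked in WT set equal 7 were higher and 6 lower, with a median of 0.02. Windows of like WT level then had -0.19, with 6152 of 7724 lower. The 12 of the first block had 0.16 with 11 higher, and windows of like WT level had 0.22. With the windows marked in WT set equal 0 were higher and 12 lower, with a median of -0.15. Windows of like WT level then had -0.086, with 2584 of 4021 lower. Krt35 had a log2 ratio of 0.58 (counting interval 0.33 to 0.91), Krt17, a keratin of skin appendages and wounded skin, 0.54 (0.33 to 0.80), and Krt42 0.48 (0.28 to 0.72). In contrast, Krt25 had -0.04 (-0.21 to 0.12) and Krt28 0.01 (-0.16 to 0.18), although these had the highest WT levels. The Krtap windows between the blocks had a median of -0.11, with 13 of 21 lower in the Ezh1 KO. With marked windows set equal 20 of 21 were lower, as were 14242 of 17967 of all windows.

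The Ezh2 KO was lower at most keratins at the deposited scaling, by little. Of 25, 21 lay below their WT level (median log2 ratio -0.10), but with marked windows set equal 14 were higher and the median was 0.01. Over all windows 51.5% were lower and 48.5% higher, with a median of -0.01, and windows of like WT level had -0.09. With marked windows set equal the median of all windows was 0.10, and 12249 of 17983 were higher. The keratin median lay below that of all windows under both scalings. The counting interval lay below 0 at 5 keratins and above 0 at none, against 15.8% and 8.36% of all windows. Among the 9135 windows of like WT level it lay below 0 at 2184 and above 0 at 369. All 5 keratins are in the first block: Krt25 at -0.34 (-0.53 to -0.17), Krt26 at -0.34 (-0.56 to -0.14), Krt27 at -0.28, Krt20 at -0.32 and Krt39 at -0.22. Of the windows of like level for that block, 1664 of 4021 also had the interval below 0. The first block had a median of -0.17, and windows of like level had -0.16. In both blocks the keratin median in the Ezh2 KO lay within 0.02 of that of windows of like level, the second block having -0.06 against -0.07.

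**Figure D4:**
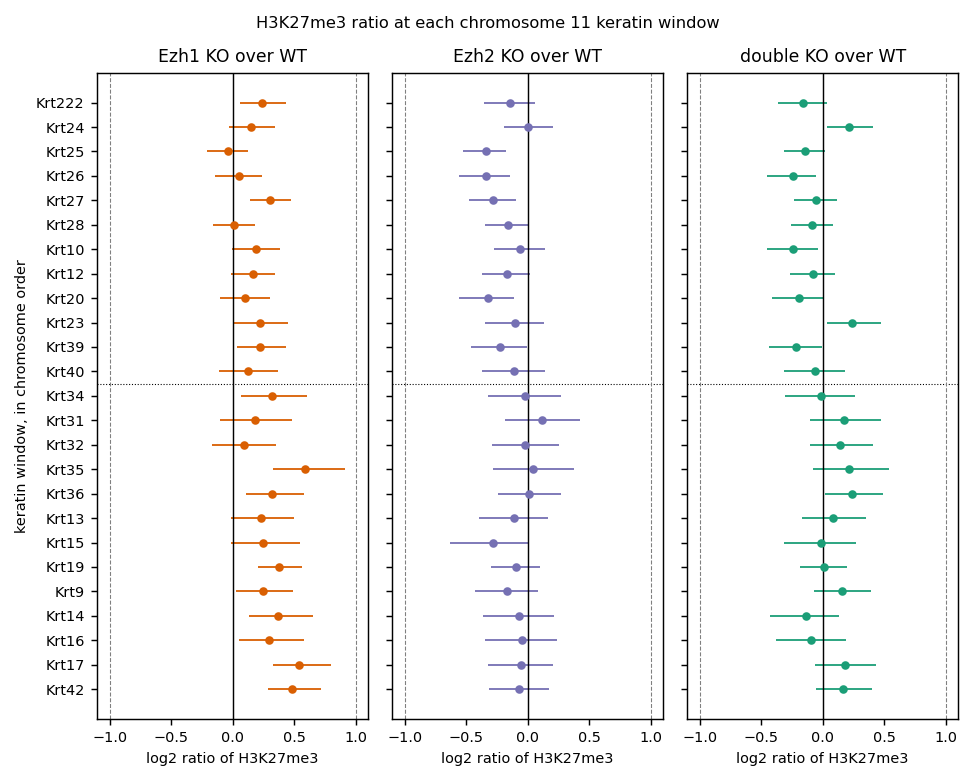
log2 ratio of the H3K27me3 level plus 1 at each chromosome 11 keratin in Ezh1 KO, Ezh2 KO and double KO over WT (points, 1 library per genotype), with the 95% counting interval (lines) and the 2-fold limits (dashed); the dotted line parts the blocks. No point reaches a dashed line, and the second block lies at 0.09 or above in the Ezh1 KO at the deposited scaling.

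With both enzymes targeted, the median keratin level was close to that in WT. In double KO over WT 11 keratins were higher and 14 lower, with a median log2 ratio of -0.02, while with marked windows set equal the median was -0.15 and that of all windows -0.08. Over all windows 59.6% were higher and 40.4% lower, with a median of 0.05, and windows of like WT level had 0.01. The counting interval lay above 0 at 3 keratins and below 0 at 3, against 18.5% and 9.3% of all windows. Among the 9135 windows of like WT level it lay above 0 at 1746 and below 0 at 1368. Krt25 had the highest keratin level in the double KO, 40.7. This was 3.91 times the background median of that library and below its marked threshold of 41.6.

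In the double KO the block medians lay on either side of 0 at the deposited scaling. With marked windows set equal the second block's was 0.0048 (7 higher, 6 lower) and the first block's -0.26. At that scaling windows of like WT level had -0.13 for the second block and -0.12 for the first. Of the 12 keratins in the first block 10 lay below their WT level at each of the 4 scalings. Their block's median log2 ratio was -0.12 at the deposited scaling, whereas windows of like WT level had 0.02. Of those 4021 windows, 1879 were lower at the deposited scaling and 2708 with marked windows set equal. Of the 13 in the second block 9 were higher, with a median of 0.14, while windows of like level had 0.00. Under the other scalings 8, 8 and 7 were higher. Of the 7724 windows of like level, 3882 were higher at the deposited scaling and 2167 with marked windows set equal. Krt26 and Krt10 had -0.24 each, with intervals of -0.45 to -0.05 and -0.46 to -0.04. Within the first block Krt24 at 0.21 (0.04 to 0.41) and Krt23 at 0.24 (0.03 to 0.47) went the other way. The second block's median exceeded the first block's by 0.26, against -0.02 between the windows of like level for the blocks. The Krtap windows had 17 of 21 lower, with a median of -0.15, and 19, 19 and 20 of 21 lower under the other scalings. Over all windows 8971 of 17978, 8406 of 17975 and 11652 of 17973 were lower under those scalings.

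The double KO was also set beside each single KO; these 2 comparisons share the double KO library, as the 3 above share WT. It had 22 of 25 keratins lower than the Ezh1 KO at the deposited scaling (58.0% of all windows). The median log2 ratio of the 25 was -0.29. With marked windows set equal 16 of 25 were lower, with a median of -0.12. All windows then had 0.11, with 5532 of 17964 lower. At least 2-fold differences numbered 0 in either direction (0.0167% higher and 0.206% lower of all windows). Windows of like WT level had a median of -0.12, and the counting interval lay below 0 at 15 keratins and above 0 at none, against 24.9% and 7.16% of all windows. Among the 9135 windows of like WT level it lay below 0 at 3245 and above 0 at 456. Krt14 had the largest ratio, -0.51 (-0.80 to -0.28). Over the Ezh2 KO, 21 of 25 were higher and 4 lower in the double KO (58.1% and 41.9% of all windows), with a median of 0.13. With marked windows set equal 22 were lower, with a median of -0.12. All windows then had -0.19, with 14584 of 17981 lower. Again 0 reached 2-fold in either direction (0.0167% and 0.0167% of all windows). Windows of like WT level had 0.10, and the counting interval lay above 0 at 7 keratins and below 0 at none, against 21.9% and 5.58% of all windows. Among the 9135 windows of like WT level it lay above 0 at 2519 and below 0 at 344.

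Keratin RNA was close to 0 in every genotype. No keratin reached 0.1 in any library, whereas 10340 genes did in Ezh1 KO, 10629 in Ezh2 KO, 10529 in double KO and 10457 in WT cells. None reached the minimum of 1 for a 2-fold call, so 0 of 44 could be called in any comparison. Among genes at 1 or more, 0.154% were called higher and 0.288% lower in Ezh1 KO over WT, 1.1% and 0.393% in Ezh2 KO over WT, and 1.07% and 0.169% in double KO over WT. In double KO over Ezh1 KO these shares were 0.726% and 0.157%, and in double KO over Ezh2 KO 0.345% and 0.441%. A value above 0 was listed for 40 keratins in Ezh1 KO, 38 in Ezh2 KO, 35 in double KO and 27 in WT cells, with RNA depths of 70.4, 40.7, 94.1 and 36.1 M reads. Over all 22410 genes, 21401, 21028, 21116 and 19547 were above 0 in the same order, so WT had the fewest there too. Krt34 was the 1 keratin listed at 0 in all 4 libraries, and 23 were above 0 in all 4. Summed over the exons of all 44 genes, peak heights came to 2.80, 2.98, 1.70 and 2.46 read heights per M reads. This quantity is not a read count, so no counting interval is given.

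The highest RNA value was that of Krt222, the keratin gene beside Smarce1, with 0.0821 in Ezh1 KO, 0.0782 in Ezh2 KO, 0.0335 in double KO and 0.0897 in WT cells. The double KO value was the lowest of the 4, and the other 3 lay close together. Krt18 followed with 0.0296, 0.0457, 0.0325 and 0.0329, and its partner Krt8 had 0.0103, 0.00743, 0.0239 and 0.0208. Krt10 had 0.0281, 0.0154, 0.0218 and 0.0244. Krt19 had 0.0174, 0.00737, 0.0170 and 0.0277. Both members of the simple epithelial pair were thus above 0 in all 4 libraries. Of the basal and suprabasal genes on chromosome 15, Krt5 had 0.00158, 0.00284, 0.00808 and 0, and Krt1 had 0.00499, 0.00568, 0.00118 and 0.00308.

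Of the other keratins among the 10 highest by RNA, Krt20, Krt7 and Krt28 were above 0 in all 4 libraries, and Krt79 and Krt23 in 2. Krt20, a gut and urothelial keratin, had 0.00703, 0.0273, 0.00266 and 0.00692. Krt79 had 0.0176 in Ezh1 KO, 0 in Ezh2 KO, 0.00236 in double KO and 0 in WT cells. Krt23 had 0.0163 and 0.0113 in the Ezh1 and Ezh2 KO and was listed at 0 in the double KO and in WT. Krt7, a keratin of ducts and simple epithelia, had 0.0109, 0.0067, 0.0122 and 0.0206, and Krt28 had 0.00355, 0.0139, 0.00133 and 0.00346. With values this low and 1 library per genotype, differences between libraries in them are not read as changes.

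RNA of each cluster is given for the libraries side by side, including the chromosome 15 cluster, whose H3K27me3 could not be read. The median over 25 chromosome 11 keratins was 0.00474 in Ezh1 KO, 0.00614 in Ezh2 KO, 0.00176 in double KO and 0.00346 in WT cells. Over 19 chromosome 15 keratins it was 0.00474, 0.00546, 0.00236 and 0. Summed read heights per M reads were 1.71, 1.87, 0.803 and 1.63 on chromosome 11, and 1.09, 1.11, 0.899 and 0.825 on chromosome 15. On chromosome 11 the double KO was the lowest library, and on chromosome 15 WT was. The double KO is the deepest RNA library (94.1 M reads) and WT the shallowest (36.1 M reads), and the part of depth was not tested. The Krt25 and Krt28 windows, marked in WT, and the Krt35 window, the lowest, alike belonged to genes with RNA under 0.02 in all 4 libraries.

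**Figure D5:**
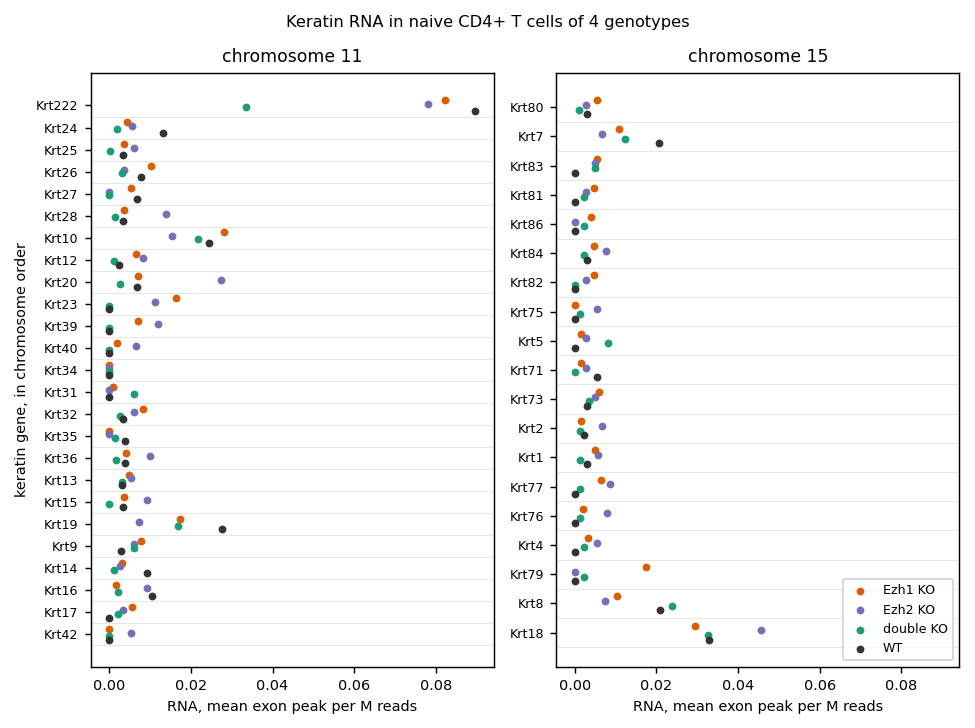
RNA of the 44 keratins (mean exon peak per M reads) on chromosome 11 (left) and chromosome 15 (right), in chromosome order, with 1 point per library for Ezh1 KO, Ezh2 KO, double KO and WT. All points lie under 0.1, Krt222 is the highest, and Krt18 is the highest on chromosome 15.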

How the data were processed

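ChIP-seq for H3K27me3 and RNA-seq each gave 4 libraries of naive CD4+ T cells, 1 for each genotype. Per the labels' protocols, reads were aligned to mm9 with Bowtie 0.12.7, keeping single locations with at most 2 errors; bcl2fastq, Cufflinks and Cuffdiff stand in the submitters' processing notes with no role. The deposited values are signal (coverage): per the headers, the area and highest bin around each start site for ChIP and the mean and median over exons of peak coverage for RNA. From the values, areas are coverage per M reads summed over 240 bins of 25 bp, with reads extended to 151 bp. A further RNA column, per the file headers, holds the number of exons. Whether input was subtracted is not stated, and no input or spike-in library was used. The extract protocol on the RNA samples describes ChIP.

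The plan allowed for counts; the files hold signal, which was used as deposited. Depth came from the height of 1 read, and exact Clopper-Pearson counting intervals (95%) for ratios from read equivalents without the pseudocount. Without molecular identifiers, PCR copies cannot be told from independent molecules, so these cover counting error only. Ratios used a pseudocount of 1 (ChIP) or 0.1 (RNA), a minimum of 1 in the higher library and a 2-fold threshold. Windows of like WT level are those within the range of the keratins' WT levels. Genes named with values are, on chromosome 11, the 5 highest and 3 lowest windows by WT level, all marked windows and those nearest the threshold, the pairs Krt8 and Krt18, Krt5 and Krt14, Krt1 and Krt10, the 10 highest by RNA, and others singled out after their values were seen. The keratins, lists and rules were chosen with earlier results of these data known. Sequences and CG counts came from the mm9 genome and start annotations from GENCODE on the same build. Other scalings were the median of ratios, background windows set equal and windows marked in WT set equal. The ChIP calls and counting intervals were checked on simulated windows with counting noise only and added changes larger than any seen at a keratin. RNA calls and variation between preparations were not simulated. Python 3.11.15, numpy 2.4.6, pandas 2.3.3, scipy 1.17.1 and matplotlib 3.10.9 were used.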

Additional observations from a re-analysis of the deposited data

How the results depend on the processing

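No paired analysis was possible because each genotype has 1 library per assay and no replicate numbers are shared. Of 228 values under alternative settings, 15 moved beyond their limit. Some could not move. Keratin RNA lay too low for a 2-fold call under any of these settings. A count of 0 at 2-fold also stays at 0 at a stricter threshold. The 15 of 228 is therefore not read as a measure of stability. In the ChIP comparisons 0 keratins reached 2-fold at the deposited scaling. With the highest bin in place of the area, the chromosome 11 median over that of all windows was 1.46 in Ezh1 KO, 1.18 in Ezh2 KO, 1.27 in double KO and 1.33 in WT cells. Setting the windows marked in WT equal turned the median log2 ratio to -0.073 for Ezh1 KO over WT and to -0.12 for double KO over Ezh2 KO; the cause was not tested. Marked keratins at 2 times background numbered 19 in Ezh1 KO, 11 in Ezh2 KO, 16 in double KO and 15 in WT cells. At 8 times background, and with all windows as background, they numbered 0 in the Ezh1 KO and 0 in WT. The shares of all windows at these limits are not given, so the counts are not set against them. By the median over exons the highest keratin RNA in the Ezh1 KO was 0.113 (Krt222). With 1 library per genotype, differences between genotypes cannot be told apart from differences between preparations, and a chromosome 15 level cannot be given.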
